A study of Mus musculus with 8 samples.

Results

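The expression of 10 genes of the JAK-STAT pathway was followed in CD4+ CD25+ T cells of mouse visceral adipose tissue and spleen: the receptor gene Il2rg, the transcription factor genes Stat5a, Stat5b and Stat3, the feedback inhibitor genes Cish, Socs1, Socs2 and Socs3, and the kinase genes Pim1 and Pim2. They were chosen by name, as the rows of the deposited expression table that carry these symbols, and are 10 of the 45232 genes listed. RNA came from C57BL/6 mice in 4 groups: Id2 CKO (here KO) and WT cells of visceral adipose tissue, and KO and WT cells of spleen. Each group held 2 libraries, numbered 2 and 3, which the file headers call experiments, and values are given in that order. All groups passed the same gate, CD4+ CD25+, which is rich in regulatory T cells (Tregs), with at least 500 sorted cells a sample. Per the labels, cDNA synthesis used SMARTer v4 chemistry for very small amounts of RNA, and Nextera XT was used for the libraries. What drives the deletion of Id2, which encodes an inhibitor of E-protein transcription factors, is not known from the labels, nor are the age of the mice and whether animals were pooled.

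Cytokines of the common gamma chain family, such as IL-2, bind receptors that share the subunit encoded by Il2rg, and kinases of the JAK family attached to these receptors phosphorylate STAT5 and, for some receptors, STAT3, which then act on genes in the nucleus. STAT5 turns on genes for its own inhibitors, the SOCS proteins, which bind the receptors or the JAK kinases and end the signal, and for Pim kinases, serine/threonine kinases of cell growth and survival. In Tregs, IL-2 acting through STAT5 maintains expression of Foxp3, the lineage factor, and a high level of CD25, the IL-2 receptor alpha chain on which these cells were sorted.

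The STAT5 dimer is known to bind the spaced palindrome TTCNNNGAA, which reads the same on both strands. It was searched in RefSeq promoter windows (GRCm38.p6, 250 bases before to 50 bases after the start of transcription), which were matched for 9 of the 10 genes, all but Socs2. A match was found for 2 of the 9 genes: 2 in Cish, at +1 to +9 and at +12 to +20 from the start, and 1 in Socs3, at -154 to -146. Of all 32851 windows in the table, 8.30% held at least 1 match and 0.457% held at least 2. The windows of Cish and Socs3 are shown because they hold the matches, and that of Socs1 because its level lay highest in the same tissue as that of Cish. Each runs from 175 bases before to 25 bases after the start, 5′ to 3′ on the strand of the gene, with the matches in capitals. The Socs1 window holds none, which says only that these letters are not in it.
Cish chr9:107296484-107296683 (+): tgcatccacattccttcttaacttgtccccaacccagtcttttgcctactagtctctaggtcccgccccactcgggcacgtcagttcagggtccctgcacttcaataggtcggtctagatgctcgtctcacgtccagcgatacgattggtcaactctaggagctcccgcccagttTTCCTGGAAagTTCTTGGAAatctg
Socs3 chr11:117969342-117969541 (-): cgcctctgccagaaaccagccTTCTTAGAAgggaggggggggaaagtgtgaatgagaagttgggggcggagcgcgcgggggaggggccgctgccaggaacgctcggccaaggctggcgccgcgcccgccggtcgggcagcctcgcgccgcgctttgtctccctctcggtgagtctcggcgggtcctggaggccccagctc
Socs1 chr16:10785512-10785711 (-): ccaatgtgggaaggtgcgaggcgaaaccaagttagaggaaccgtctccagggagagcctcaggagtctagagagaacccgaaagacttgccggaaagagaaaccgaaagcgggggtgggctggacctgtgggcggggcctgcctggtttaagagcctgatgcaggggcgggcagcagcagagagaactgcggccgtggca

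Expression is given in TPM (transcripts per 1000000, a share of all transcripts corrected for transcript length), and the number of reads behind a value is unknown. Genes above 0 numbered 13184 to 20684 a library, and the libraries of a group correlated across genes with r = 0.812 (KO adipose), 0.902 (WT adipose), 0.938 (KO spleen) and 0.956 (WT spleen). The labels do not say whether the 2 libraries of a group are from different mice, and p-values rest on their spread, which may be technical. Id2 itself had 1499 and 1298 TPM in the KO adipose libraries, against 2249 and 3679 TPM in those of WT, and 72.1 and 265 TPM in the KO spleen libraries, against 274 and 346 TPM in those of WT. Both KO libraries lay below both WT libraries in each tissue, but Id2 was not lost in any and the difference did not pass (-1.04 in adipose tissue, limma adjusted p = 0.751, and -1.15 in spleen, adjusted p = 1). The part of the gene that was deleted is not known from the labels, so its level does not show the deletion, and KO names the label. All 13 T cell core genes were above 1 TPM in every library, with a summed level of 7362 to 25460 TPM. Foxp3 was low in both KO libraries numbered 2, with 7.40 TPM (adipose) and 8.27 TPM (spleen), against 93.5 to 266 TPM in the other 6 libraries. All 9 genes of the Treg list were above 1 TPM in both. Their sum in KO adipose 2, 1772 TPM, was the highest of its tissue (1065 to 1722 TPM in the other adipose libraries). In KO spleen 2 it was the lowest of its tissue, at 1734 TPM (1974 to 2343 TPM in the other spleen libraries). Such a sum rests mostly on its abundant genes. KO adipose 3 carried genes of other cells, with all 13 macrophage genes (11590 TPM in sum) and all 7 adipocyte genes (13880 TPM) above 1 TPM. Results are therefore given with and without these libraries where this changes a call.

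All 10 genes were detected in all 8 libraries and all passed the filter for testing, at least 1 TPM in at least 2 libraries, which 13376 genes passed. Il2rg was the most abundant of the set in each library (median 2033 TPM, higher than 99.5% of the tested genes by its median), and Socs1 was next in each (182.5 TPM). Cish (90.3 TPM) followed by median. Pim1 (37.7 TPM), Stat3 (34.4 TPM), Socs2 (34.2 TPM), Stat5b (33.2 TPM) and Pim2 (26.4 TPM) lay close together, within their spread over libraries. Stat5a (11.9 TPM) and Socs3 (11.6 TPM) were lowest. The receptor gene varied least, by 2.46-fold between its lowest and highest library. Socs3 varied most, by 12.9-fold, followed by Cish (11.9-fold) and Pim1 (10.1-fold).

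**Figure D1:**
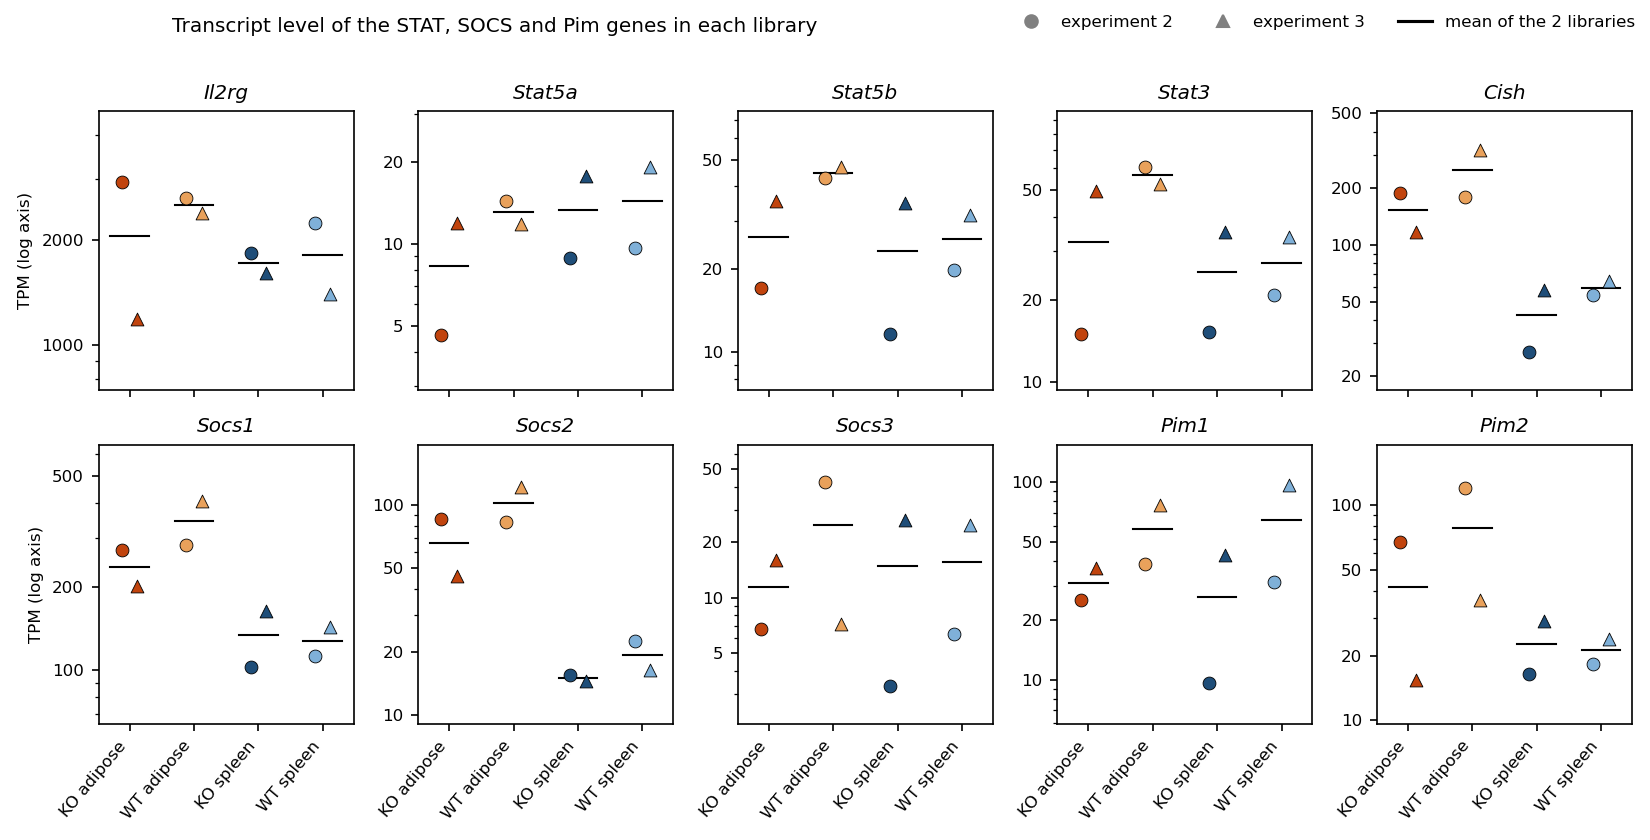
TPM of each of the 10 genes (log axis, a separate scale per gene) in the 8 libraries, by group; circles are experiment 2, triangles experiment 3, and bars the mean of the 2 libraries. For Cish, Socs1 and Socs2 the 4 adipose libraries lie above the 4 spleen libraries, while for the other 7 genes the tissues overlap.

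The feedback genes Socs2, Cish and Socs1 stood higher in adipose tissue than in spleen in both genotypes, by 4.48-fold, 3.86-fold and 2.18-fold on average. Socs2 and Cish rose past the threshold, Socs1 just missed it, and the receptor, STAT and Pim genes and Socs3 did not pass. Tissues were compared with limma on log2(TPM + 1), averaged over the genotypes, with p-values adjusted over all 13376 genes and a threshold of 0.05. With this pseudocount of 1, fold changes of low genes are understated.

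Socs2, which encodes an adaptor that marks signalling proteins for degradation and is best known as a brake on growth hormone signalling, was at 86.2 and 46.0 TPM in KO and 83.0 and 122 TPM in WT adipose tissue, against 15.5 and 14.5 TPM in KO and 22.5 and 16.3 TPM in WT spleen. Every adipose library exceeded the highest spleen library, and the lowest adipose library was KO adipose 3. The log2 fold change was 2.16 (SE 0.30, 95% interval 1.48 to 2.85, limma adjusted p = 0.0115), with means of 84.2 ± 31.0 TPM in adipose tissue and 17.2 ± 3.60 TPM in spleen (SD, n = 4 each). Paired by genotype and experiment, the ratio of adipose tissue to spleen was 5.55 and 3.16 in KO and 3.69 and 7.46 in WT cells.

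Cish, which encodes a SOCS protein that binds activated cytokine receptors and is a classical STAT5 target, was at 189 and 116.5 TPM in KO and 179.7 and 321 TPM in WT adipose tissue, against 27.0 and 57.4 TPM in KO and 54.1 and 64.0 TPM in WT spleen. Again all 4 adipose libraries were above all 4 spleen libraries, with WT adipose 3 highest and KO spleen 2 lowest. The log2 fold change was 1.95 (SE 0.33, 95% interval 1.19 to 2.71, limma adjusted p = 0.0266), with means of 202 ± 85.9 TPM in adipose tissue and 50.7 ± 16.3 TPM in spleen (SD, n = 4 each). The ratio was 7.01 and 2.03 in KO and 3.32 and 5.02 in WT cells.

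Socs1, which encodes a direct inhibitor of JAK kinases that restrains interferon and gamma chain cytokine signals, was at 271 and 201 TPM in KO and 283 and 404.5 TPM in WT adipose tissue, against 103 and 164 TPM in KO and 112.5 and 143 TPM in WT spleen. The tissues did not overlap, although KO adipose 3 and KO spleen 3 were close, with a ratio of 1.22. The log2 fold change of 1.12 (SE 0.26, 95% interval 0.53 to 1.72) did not pass (limma adjusted p = 0.0606). It passed with the experiment number as a block in the fit (limma adjusted p = 0.0434). Its own level was lower in the library numbered 3 than in that numbered 2 in KO adipose tissue and higher in the other 3 groups.

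Of the 10 genes, 2 were called as higher, where 2.33% of all tested genes were, and 0 as lower, where 0.725% were. The tissues did not overlap for 3 of the 10, all higher in adipose tissue, where 11.6% of all tested genes did so. Cish lost its call without WT adipose 3 (limma adjusted p = 0.101), KO adipose 3 (0.0538), WT spleen 2 (0.134) or 3 (0.115), or KO spleen 2 (0.0971), and Socs2 lost it without WT adipose 3 (0.0599), WT spleen 2 (0.0698) or 3 (0.0784), or KO spleen 2 (0.0626). Without both KO libraries numbered 2 the log2 fold changes were 1.96 for Socs2, 1.51 for Cish and 0.85 for Socs1, with limma adjusted p of 0.0772, 0.111 and 0.17. Without a filter on low values they were as large, with adjusted p of 0.0661, 0.104 and 0.135. Socs1 passed without KO spleen 3 (limma adjusted p = 0.0497).

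**Figure D2:**
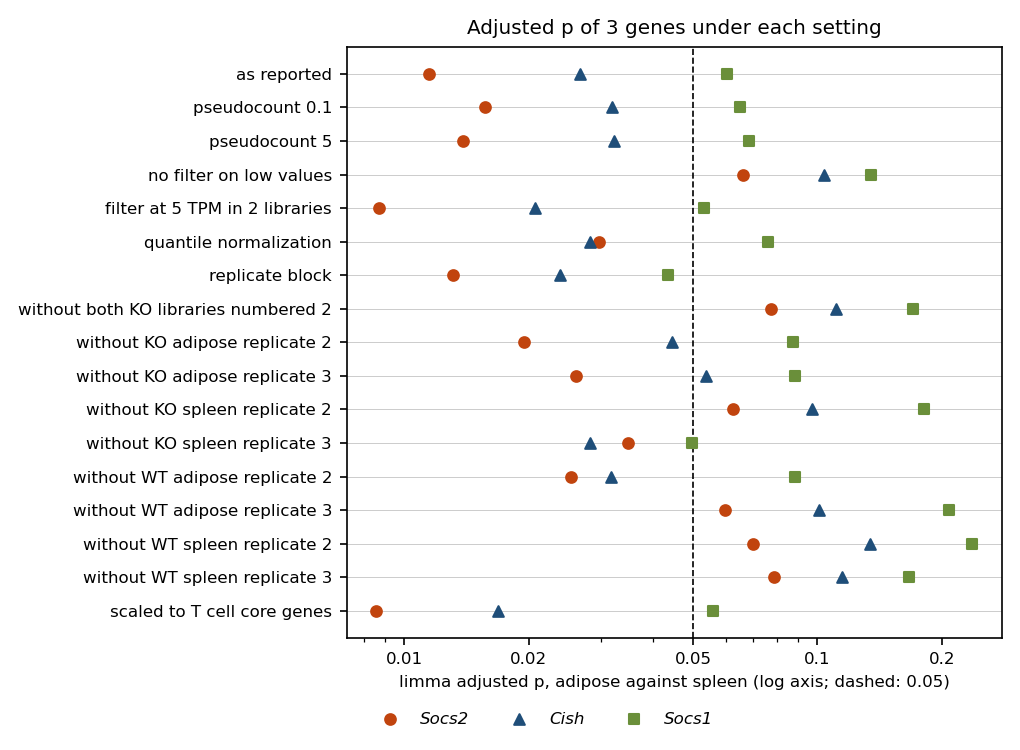
Limma adjusted p (log axis) for Socs2, Cish and Socs1 in adipose tissue against spleen under each setting, with the threshold of 0.05 as a dashed line. Socs2 and Cish cross the line with each of several single libraries left out and without a filter on low values, and Socs1 lies left of it with the replicate block and without KO spleen 3.

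Markers of handling and of some other cells also differed between the tissues, with 7 of 13 tested handling genes past the test as higher. The 14 immediate early and heat shock genes of the handling list summed to 6590 and 7333 TPM in KO and 8326 and 15750 TPM in WT adipose tissue, against 258 and 437 TPM in KO and 354 and 668 TPM in WT spleen. A difference between the tissues in digestion or holding time is confounded with the tissue itself and cannot be told apart from it. Of genes of natural killer and innate lymphoid cells, 2 rose and 1 fell, with sums of 126 and 166 TPM in KO and 58.4 and 303 TPM in WT adipose tissue, against 7.49 and 12.5 TPM in KO and 8.25 and 18.7 TPM in WT spleen. B cell genes were lower in adipose tissue, 7 of 7 tested at an unadjusted p under 0.05 and 1 past the test, with sums of 576 to 1349 TPM, against 1405 to 2308 TPM in spleen. Adipocyte genes summed to 17.3 and 13880 TPM in KO and 5.98 and 2037 TPM in WT adipose tissue, against 1.25 to 8.82 TPM in spleen. Endothelial genes summed to 13.2 and 804 TPM in KO and 38.2 and 115 TPM in WT adipose tissue, against 5.59 to 28.1 TPM in spleen. WT adipose 3, highest of all libraries in Cish, Socs1 and Socs2, was thus also highest in the handling and innate lymphoid sums and second in those of adipocyte and endothelial genes. Its natural killer and innate lymphoid sum rested on 2 of the 6 listed genes, the only ones above 0 in that library. Macrophage genes summed to 15.8 and 11590 TPM in KO and 9.78 and 28.3 TPM in WT adipose tissue, against 14.7 to 617 TPM in spleen. Erythroid genes summed to 34710 and 65680 TPM in KO and 38.4 and 3798 TPM in WT adipose tissue, against 1186 and 107800 TPM in KO and 15720 and 46710 TPM in WT spleen. Fibroblast and mesothelium genes (4 of 6 tested past the test as higher) are given with the genotype comparison. Of the adipocyte, endothelial, macrophage and erythroid genes, 0 passed the test by limma. Of 5 tested dendritic cell genes, 1 was called as higher. Of the 9 Treg genes, 0 were positive (median log2 fold change -0.815), with 4 at an unadjusted p under 0.05 and 1 called as lower by limma. Of the 13 T cell core genes, 2 were positive (median -0.334), with 2 at that p and 0 called. Of all tested genes, 63.8% were positive, with a median of 0.24. Of all tested genes, 2.33% were called as higher and 0.725% as lower, and 22.6% were at an unadjusted p under 0.05 by limma. The part of the handling genes, of these other cells and of the lower Treg genes in the tissue differences was not tested. In bulk RNA, fewer cells of a type and less RNA per cell cannot be told apart. Scaled to the summed level of the T cell core genes in each library, a choice made after the data were seen, the log2 fold changes were 2.79 for Socs2 (limma adjusted p = 0.00857), 2.59 for Cish (0.0169) and 1.77 for Socs1 (0.0558), while the median over all tested genes moved to 0.80, against 0.24 unscaled.

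Within a genotype Socs2, Cish and Socs1 had the smallest p of the 10 genes. In KO cells the log2 fold change of adipose tissue against spleen was 2.00 for Socs2 (limma adjusted p = 0.0824), 1.89 for Cish (0.132) and 0.84 for Socs1 (0.388). In WT cells it was 2.33 for Socs2 (limma adjusted p = 0.0857), 2.01 for Cish (0.171) and 1.41 for Socs1 (0.202), and Pim2 had a larger value than Socs1 (1.61) with a larger SE (0.76, limma adjusted p = 0.412). With 2 libraries a group, limma called 0 of the 10 in either genotype, against 1.08% of all tested genes in KO (0.927% higher, 0.15% lower) and 0.164% in WT cells (0.135% higher, 0.0299% lower). At an unadjusted p under 0.05 there were 2 in KO (Socs2 and Cish) and 3 in WT cells, where 12.9% of all tested genes were in KO and 13% in WT cells. In KO cells 3 genes lay higher in adipose tissue without overlap (22.1% of all tested genes did). In WT cells 7 did so (37.8% of all tested genes), the additional 4 being Stat3, Stat5b, Pim2 and Il2rg. These comparisons share libraries with the averaged one and are not separate evidence.

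**Figure D3:**
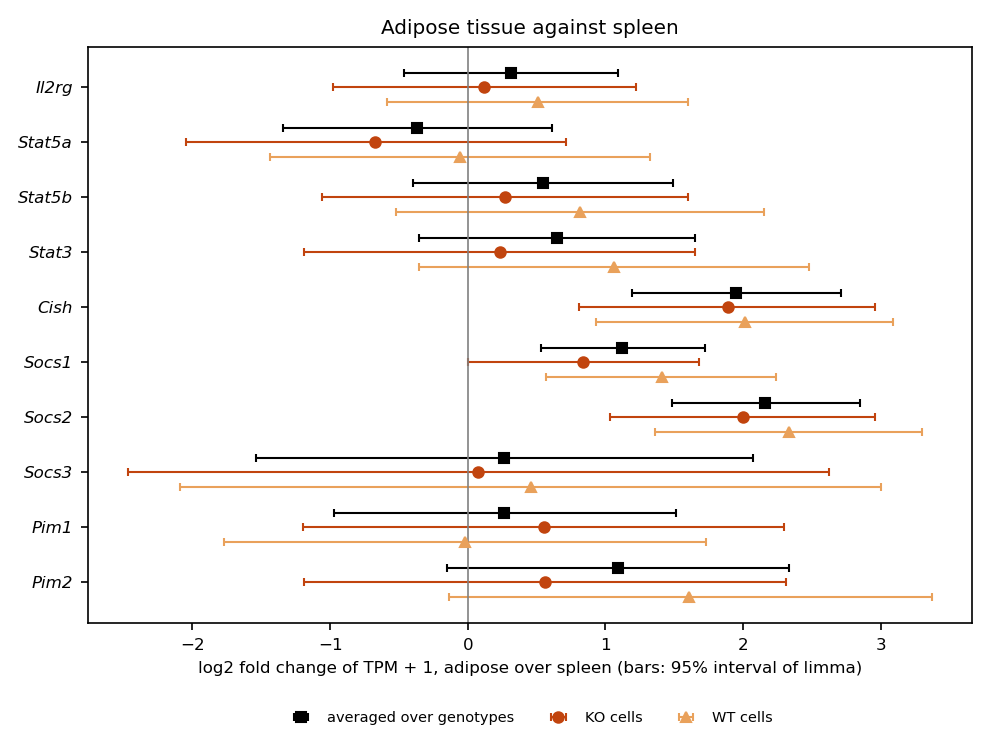
Log2 fold change of TPM + 1, adipose tissue over spleen, for each of the 10 genes, averaged over genotypes (black squares) and in KO (circles) and WT cells (triangles), with the 95% interval of limma. The averaged intervals of Socs2, Cish and Socs1 lie above 0 and those of the other 7 genes span 0.

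The remaining feedback gene did not pass, but its wide interval held the log2 fold changes of Socs1 and Cish, though not that of Socs2. Socs3, which encodes an inhibitor of receptors that signal through gp130 and STAT3, was at 6.71 and 16.03 TPM in KO and 42.4 and 7.21 TPM in WT adipose tissue, against 3.30 and 26.5 TPM in KO and 6.33 and 24.8 TPM in WT spleen. Its tissues overlapped, and in spleen both libraries numbered 3 were higher than both numbered 2. The log2 fold change was 0.27 (SE 0.78, 95% interval -1.54 to 2.07, limma adjusted p = 0.869), and it was negative after quantile normalization (-0.17). As log2 ratios within a library, Socs3 over Cish averaged -3.69 ± 1.52 in adipose tissue and -2.01 ± 0.93 in spleen (SD, n = 4 each), which did not differ beyond the spread (exact two-sided permutation test, p = 0.143, adjusted over 3 ratios 0.214).

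Il2rg, the shared receptor subunit, was at 2927 and 1189 TPM in KO and 2649 and 2399 TPM in WT adipose tissue, against 1832 and 1610 TPM in KO and 2234 and 1404 TPM in WT spleen. KO adipose 3 was the lowest of all 8 libraries and KO adipose 2 the highest, so the tissues overlapped. The log2 fold change was 0.31 (SE 0.34, 95% interval -0.46 to 1.09, limma adjusted p = 0.608).

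The genes for the STAT factors themselves did not differ between tissues past the test. They are neighbours in the genome, in the order Stat5b, Stat5a and Stat3 on chromosome 11 (RefSeq, GRCm38.p6). Stat5b was at 17.1 and 35.5 TPM in KO and 42.7 and 46.9 TPM in WT adipose tissue, against 11.6 and 34.9 TPM in KO and 19.9 and 31.5 TPM in WT spleen. Stat3, which carries signals of IL-6 family, IL-10 and IL-21 receptors, was at 14.98 and 49.6 TPM in KO and 60.4 and 52.8 TPM in WT adipose tissue, against 15.2 and 35.1 TPM in KO and 20.8 and 33.6 TPM in WT spleen. For both genes 3 of the 4 adipose libraries exceeded all 4 spleen libraries, and KO adipose 2 did not. The log2 fold changes were 0.54 for Stat5b (SE 0.41, limma adjusted p = 0.456) and 0.65 for Stat3 (SE 0.44, adjusted p = 0.405).

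Stat5a was at 4.64 and 11.97 TPM in KO and 14.4 and 11.9 TPM in WT adipose tissue, against 8.90 and 17.7 TPM in KO and 9.67 and 19.2 TPM in WT spleen. It was the only gene of the 10 with a negative average, -0.37 (SE 0.43, limma adjusted p = 0.638), a sign that turned to 0.24 when scaled to the T cell core genes. Stat5b exceeded Stat5a in every library, by 3.68 and 2.97 times in KO and 2.97 and 3.96 times in WT adipose tissue, against 1.30 and 1.97 times in KO and 2.06 and 1.64 times in WT spleen. The log2 ratio of Stat5a over Stat5b averaged -1.64 ± 0.19 in adipose tissue and -0.74 ± 0.29 in spleen (SD, n = 4 each), and the tissues did not overlap. The difference of -0.91 gave the smallest p the exact two-sided permutation test over 70 splits allows (p = 0.0286), but did not pass when adjusted over the 3 ratios compared (0.0858). Paired by number and genotype, an exact sign-flip permutation test gave p = 0.125, again the smallest possible with 4 pairs. Stat5a and Stat5b are paralogs of closely similar sequence, and how reads that match both were counted is not given, so their levels and this ratio are uncertain.

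Pim1, a kinase gene with a short-lived transcript that STAT5 and STAT3 turn on, was at 25.3 and 36.7 TPM in KO and 38.7 and 76.8 TPM in WT adipose tissue, against 9.58 and 42.7 TPM in KO and 31.3 and 97.1 TPM in WT spleen. In each group the library numbered 3 was higher than that numbered 2, and the tissues overlapped (log2 fold change 0.27, SE 0.54, limma adjusted p = 0.804). Pim2, its relative that supports growth and survival of lymphocytes, was at 67.6 and 15.4 TPM in KO and 119.6 and 36.4 TPM in WT adipose tissue, against 16.4 and 28.8 TPM in KO and 18.3 and 23.9 TPM in WT spleen. In adipose tissue both libraries numbered 2 were highest, with a ratio to spleen of 4.12 in KO and 6.52 in WT cells, against 0.54 in KO and 1.52 in WT cells of experiment 3. Its log2 fold change was 1.09 (SE 0.54, 95% interval -0.15 to 2.33, limma adjusted p = 0.27). The log2 ratio of Pim1 over Pim2 averaged -0.18 ± 1.52 in adipose tissue and 0.64 ± 1.10 in spleen (SD, n = 4 each), which did not differ (exact two-sided permutation test, p = 0.371, adjusted over 3 ratios 0.371).

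**Figure D4:**
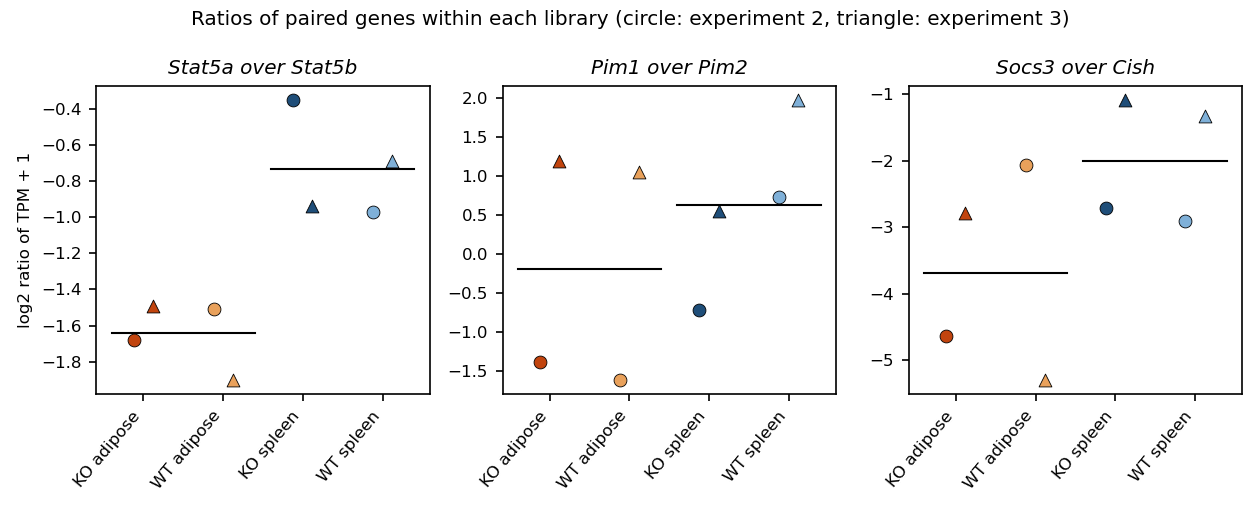
Log2 ratio of TPM + 1 of 2 related genes within each library, by group, with bars at the mean of the 4 libraries of a tissue. Stat5a over Stat5b lies between -1.90 and -1.49 in adipose tissue and between -0.97 and -0.35 in spleen, without overlap, while the other 2 ratios overlap.

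Between genotypes no gene of the set changed past the test. In adipose tissue all 10 had a lower mean in KO than in WT cells, with log2 fold changes of -1.02 (Stat3) to -0.43 (Il2rg) and a median of -0.72. The median over all tested genes was -0.27, with 31.9% positive. Limma called 0 of the 10, with 0 at an unadjusted p under 0.05, where 0.284% of all tested genes were called (0.277% higher and 0.00748% lower). For Stat3, Stat5b, Socs1 and Pim1 both KO libraries lay below both WT libraries, 4 of the 10 genes, where 27.5% of all tested genes did so. The reverse held for 0 of the 10, and for 7.66% of all tested genes. The 95% interval for Stat3 was -2.44 to 0.41 (SE 0.62, limma adjusted p = 0.752), so that neither a fall of more than 2 log2 units nor a small rise was outside it.

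The experiments differed in which genes were low in KO adipose tissue. In experiment 2 the ratio of KO to WT was 0.25 for Stat3, 0.32 for Stat5a and 0.40 for Stat5b, against 0.94, 1.01 and 0.76 in experiment 3. Of the feedback genes, Cish, Socs2 and Socs1 showed the opposite. In experiment 2 their ratios were 1.05, 1.04 and 0.96, against 0.36, 0.38 and 0.50 in experiment 3. Il2rg followed Cish, Socs2 and Socs1, at 1.11 in experiment 2 and 0.50 in experiment 3. Pim1, at 0.66 and 0.48, and Pim2, at 0.57 and 0.43, were below 1 in both experiments, while Socs3 was at 0.16 and 2.22. KO adipose 2 was the library with Foxp3 at 7.40 TPM. In KO adipose 3 the T cell core genes summed to 7362 TPM, against 14080 to 21440 TPM in the other adipose libraries, and fibroblast and mesothelium genes to 3591 TPM, against 730 TPM in KO adipose 2 and 0.33 and 4.80 TPM in WT adipose tissue. Erythroid genes were higher in KO adipose tissue (34710 and 65680 TPM) than in WT adipose tissue (38.4 and 3798 TPM), with 7 of 7 positive, 5 at an unadjusted p under 0.05 and 0 past the test by limma. Fibroblast and mesothelium genes were positive in 6 of 6 tested, 6 at an unadjusted p under 0.05 and 4 past the test by limma. Macrophage genes were positive in 12 of 12 tested, 4 at an unadjusted p under 0.05 and 0 past the test by limma. Of all tested genes, 6.97% were at an unadjusted p under 0.05 by limma and 0.277% were called as higher. The part of these cells in the lower values was not tested. Scaled to the T cell core genes, the 10 values were still negative (Stat3 -0.73, limma adjusted p = 1), while the median over all tested genes moved to -0.0036, against -0.27 unscaled. With single libraries left out, Pim2 (0.032) and Il2rg (0.215) turned positive without KO adipose 3 and Socs3 (0.48) without WT adipose 2.

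In spleen, 8 of the 10 genes had a lower and 2 (Socs1 and Pim2) a higher mean in KO cells, with a median log2 fold change of -0.24 (-0.12 over all tested genes). Limma called 0 of the 10, with 0 at an unadjusted p under 0.05, as it called 0% of all tested genes. Only Socs2 lay lower in KO without overlap, where 13.9% of all tested genes did so, and 0 of the 10 lay higher without overlap, where 5.93% did. Pim1 had the largest difference, at 9.58 and 42.7 TPM in KO cells and 31.3 and 97.1 TPM in WT spleen (-1.39, SE 0.76, 95% interval -3.14 to 0.36, limma adjusted p = 1). Scaled to the T cell core genes, Socs1 was at -0.012 in place of 0.034.

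Pim1 was the only gene of the 10 that was lower in KO than in WT cells in all 4 comparisons within an experiment, with ratios of 0.66 and 0.48 in adipose tissue and 0.31 and 0.44 in spleen. How many of all tested genes did so was not counted. In KO against WT, 31.9% of them were positive in adipose tissue and 35.3% in spleen. Averaged over the tissues, KO against WT gave a log2 fold change of -1.10 for Pim1 (SE 0.54, 95% interval -2.34 to 0.14, unadjusted p = 0.0743 by limma, adjusted p = 0.917). For Cish the value was -0.63 (SE 0.33, unadjusted p = 0.0946 by limma, adjusted p = 0.917). Limma called 0 of the 10 (at an unadjusted p under 0.05, 0 as well) and 0% of all tested genes. Over both tissues the KO and WT libraries overlapped for each of the 10 genes, where 0.224% of all tested genes lay higher and 1% lower in KO without overlap. The genotype effect did not differ between the tissues past the test for any of the 10 (limma adjusted p = 1 for each, 0 at an unadjusted p under 0.05, with 0.0299% of all tested genes called).

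**Figure D5:**
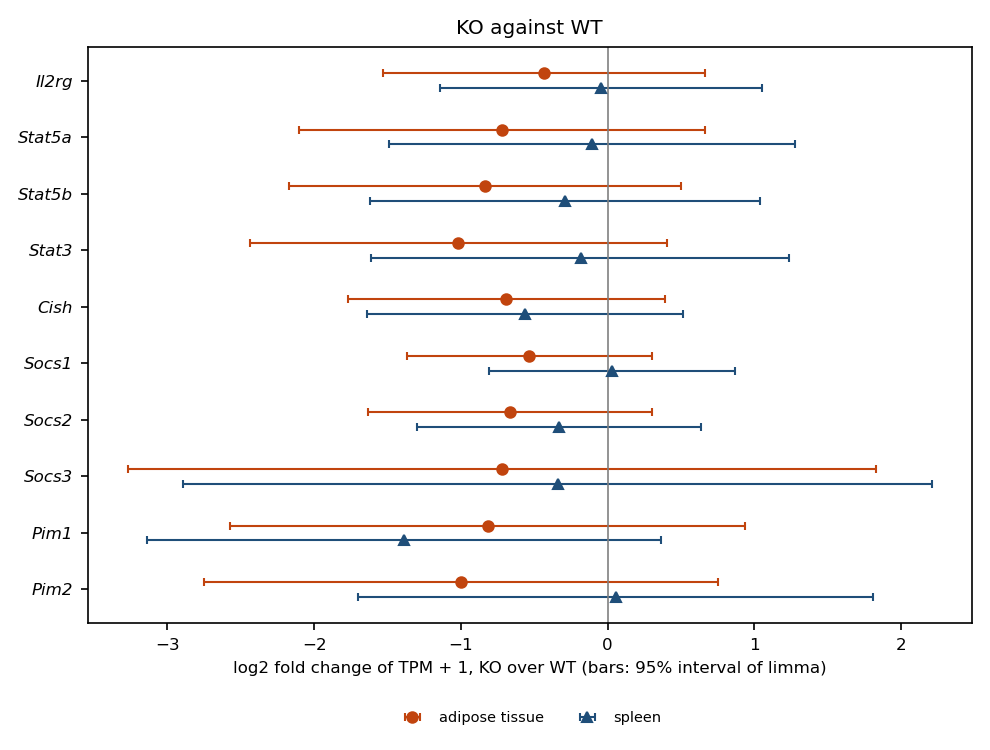
Log2 fold change of TPM + 1, KO over WT, for each of the 10 genes in adipose tissue (circles) and spleen (triangles), with the 95% interval of limma. All intervals span 0. The adipose values lie between -1.02 and -0.43.

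The wider pathway was read from 9 lists of other cytokine, receptor, JAK, STAT, inhibitor and target genes (93 genes, 88 tested). In adipose tissue against spleen 57 of the 88 were positive, with a median log2 fold change of 0.39, where 63.8% of all tested genes were positive with a median of 0.24. At an unadjusted p under 0.05 there were 34 of the 88, and 22.6% of all tested genes. Of the 88, 8 rose and 4 fell past the test, where 3.06% of all tested genes were called. Il2, which encodes the main ligand of CD25, was at 88.0 and 41.3 TPM in KO and 30.2 and 92.5 TPM in WT adipose tissue, against 6.42 and 1.55 TPM in KO and 0.46 and 0.46 TPM in WT spleen (4.51, SE 0.52, limma adjusted p = 0.00682). It was the only called gene of 4 tested cytokine genes. Osm, a cytokine gene induced by STAT5, was at 50.9 and 34.8 TPM in KO and 67.8 and 69.0 TPM in WT adipose tissue, against 7.16 and 17.1 TPM in KO and 11.8 and 12.2 TPM in WT spleen (2.12, SE 0.33, limma adjusted p = 0.0187). The remaining rises were the AP-1 genes Fos (8.02, limma adjusted p = 0.000207), Junb (4.66, 0.00624) and Fosl2 (2.65, 0.0335), the cell cycle genes Cdkn1a (2.68, 0.0338) and Ccnd3 (1.51, 0.0369) and the receptor gene Il23r (2.49, 0.0492). Fos and Junb are also in the handling list.

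Genes known as STAT5 targets in T cells did not move with Cish and Socs2 as a group: 9 of 22 were positive, with a median log2 fold change of -0.31. Past the test 2 of them rose (Osm and Ccnd3) and 3 fell. Of all tested genes, 2.33% were called as higher and 0.725% as lower. At an unadjusted p under 0.05 by limma there were 10 of the 22, against 22.6% of all tested genes. The list does not separate targets by the direction in which STAT5 acts on them. The costimulatory receptor gene Tnfrsf9 was at 25.4 and 32.3 TPM in KO and 22.7 and 69.3 TPM in WT adipose tissue, against 224 and 290.5 TPM in KO and 321 and 264 TPM in WT spleen (-2.98, SE 0.35, limma adjusted p = 0.00733). Tnfrsf4, which encodes the costimulatory receptor OX40, fell by 1.55 (limma adjusted p = 0.0424) and Ikzf2, which encodes the Treg factor Helios, by 1.59 (0.0309) on the log2 scale. Batf, a transcription factor gene in the STAT3 target list, fell by 1.61 (limma adjusted p = 0.0427). Of 9 receptor subunits that signal through STAT5, 6 were positive and 0 passed by limma (2 at an unadjusted p under 0.05), shares close to those of all tested genes. Il7r, the IL-7 receptor gene, was at 415 and 212 TPM in KO and 450.0 and 546 TPM in WT adipose tissue, against 41.6 and 149 TPM in KO and 133 and 190.1 TPM in WT spleen, without overlap (1.77, limma adjusted p = 0.0647). JAK genes (3 of 4 positive, median 0.45), other STAT genes (3 of 4, 0.38) and other SOCS genes and brakes (9 of 15, 0.18) held 0 called members by limma, with 1 in each at an unadjusted p under 0.05. Other lists held a larger share at that p than the 22.6% of all tested genes. Of 9 receptor subunits that signal through STAT3, 7 were positive (median 0.85), 6 at that p and 1 called as higher. Of 13 STAT3 targets, 8 were positive (0.55) and 7 at that p, with 3 called as higher and 1 as lower. Of 10 Pim relatives and substrates, 9 were positive (0.51), 5 at that p and 1 called as higher. Fos and Junb passed with any single library left out. Il2 (limma adjusted p = 0.0565) and Tnfrsf9 (0.057) did not pass without WT spleen 2. The other 8 called genes did not pass without WT adipose 3, WT spleen 2 or WT spleen 3 (limma adjusted p = 0.0632 to 0.177). Of these 8, all but Ikzf2 also missed it without KO spleen 2 (limma adjusted p up to 0.179), all but Osm without KO adipose 3 (up to 0.106), and Ccnd3 and Il23r without KO adipose 2 (0.0549 and 0.058). Batf, Tnfrsf4, Ikzf2, Ccnd3 and Il23r missed it without WT adipose 2 (up to 0.114), and Fosl2, Tnfrsf4, Cdkn1a and Il23r without KO spleen 3 (up to 0.0783). Without a filter on low values Fos was the only gene of the 12 to pass (limma adjusted p = 0.0211). Without both KO libraries numbered 2, limma called 0 of the 12, with adjusted p from 0.0705.

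Between genotypes in adipose tissue, 17 of the 88 pathway genes were positive (median -0.43), where 31.9% of all tested genes were (median -0.27). Limma called 0 of the 88, where 0.284% of all tested genes were called, and 12 were at an unadjusted p under 0.05, where 6.97% of all tested genes were. The 4 JAK genes and the 4 other STAT genes were all negative, with medians of -0.80 and -1.03. Jak1, a kinase on all gamma chain receptors, was at 82.5 and 128 TPM in KO cells and 267 and 213 TPM in WT adipose tissue (-1.21, SE 0.44, limma adjusted p = 0.593). The smallest p was that of Il12rb1, which encodes a subunit of the IL-12 and IL-23 receptors, at 3.18 and 6.78 TPM in KO cells and 30.3 and 41.6 TPM in WT adipose tissue (-2.68, SE 0.59, limma adjusted p = 0.184). Next was Bcl2, in the STAT5 target list (-1.43, SE 0.33, limma adjusted p = 0.22). Both KO libraries lay below both WT libraries for Bcl2, as for 27.5% of all tested genes. Averaged over tissues, Bcl2 had the smallest p of the 88 (-0.89, limma adjusted p = 0.757). Hif1a, the hypoxia factor gene, was at 39.2 and 58.9 TPM in KO cells and 153.5 and 122 TPM in WT adipose tissue (-1.49, SE 0.41, limma adjusted p = 0.358). Il15, which encodes another gamma chain cytokine, was higher, at 6.38 and 14.3 TPM in KO cells and 2.08 and 0.33 TPM in WT adipose tissue (2.40, SE 0.66, limma adjusted p = 0.358). In spleen 16 of the 88 were positive (median -0.25), where 35.3% of all tested genes were. Limma called 0 of the 88, with 0 at an unadjusted p under 0.05, where 0.478% of all tested genes were.

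For the 4 genes with the largest range, the genes with the most similar profile over the 8 libraries were found by the mean absolute difference of the log2 levels after each gene's mean was removed. Nearest to Cish was Dok2, which encodes an adaptor of tyrosine kinase signalling (0.137 log2 units), followed by Rnf166 (0.174) and Gpcpd1 (0.175). Dok2 was at 271 and 161 TPM in KO and 255 and 338 TPM in WT adipose tissue, against 44.1 and 95.8 TPM in KO and 83.4 and 85.7 TPM in WT spleen. Nearest to Socs2 were Emb (0.203), the activation and retention receptor gene Cd69 (0.208) and Nqo2 (0.212). For Pim1 they were Pglyrp2 (0.273), Acot2 (0.276) and Chd8 (0.298), and for Socs3 the replication helicase gene Mcm6 (0.317), Ecel1 (0.393) and Tldc1 (0.423). These likenesses are descriptions over 8 libraries that share tissue, genotype and experiment.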

How the data were processed

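The authors deposited 1 table of TPM values for 8 libraries. The unit was identified from the values, since each column sums to 1000000. The genome build was mm9, as the submitters' processing notes give it. The aligner, the counter and its annotation and strand setting are not named in those notes. TPM keeps no read depth, so no counting interval is given.

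Groups were compared with limma 3.58.1 (R 4.3.3) with a variance trend on log2(TPM + 1), over the 13376 genes that reached 1 TPM in 2 or more libraries. All 8 libraries entered 1 fit with 4 group means, which share 1 estimate of the spread (4 residual degrees of freedom), and the Benjamini-Hochberg adjustment ran over all tested genes within each of 7 comparisons. The script was tested on simulated data. Ratios of 2 genes were compared by exact permutation tests. The 10 genes and the lists were chosen with earlier results of these data known. By rule, all 10 genes are named, list genes past the threshold or with the smallest p in a comparison, and, for the 4 genes of largest range, the 3 genes nearest in profile.

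Same-numbered libraries shared part of their deviation. The difference of experiment 3 from experiment 2, correlated across genes, gave r of 0.128 to 0.382 for the 6 pairs of groups, all over 0.1. On this ground, and because the file headers call the numbers experiments, the number was taken to pair libraries. The paired ratios and the sign-flip test use this pairing. The limma fit as reported does not use it, and the block is given as an alternative. Alternatives were pseudocounts of 0.1 and 5, no filter and a filter at 5 TPM, quantile normalization, the number as a block, fits to only the groups compared, and leaving out each library or both KO libraries numbered 2. Scaling to T cell core genes was added after the data were seen.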

Additional observations from a re-analysis of the deposited data

How the results depend on the processing

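Depth is unknown, 2 libraries a group limit every comparison, and Foxp3 was low in both KO libraries numbered 2. Of 600 values of the 10 genes under alternatives other than a left-out library, 566 kept direction and side of the threshold, 4 were no longer past it, 1 passed newly and 29 changed sign. The causes of the changes below were not tested.

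In adipose tissue against spleen averaged over genotypes, the number of the 10 genes called (2) was 0 without a filter on low values, 0 without both KO libraries numbered 2, and 0 to 3 with a single library left out. With the replicate block 3 were called. The log2 difference of Stat5a over Stat5b was -0.77 without both KO libraries numbered 2 (exact permutation p = 0.1, the smallest possible) and -0.91 with the replicate block (exact sign-flip permutation p = 0.125). The block changed the call of no other of the 10 genes. Over all genes, 409 were called in this comparison (312 higher), against 885 with the block (689 higher), 610 after quantile normalization (343 higher), 257 scaled to T cell core genes (245 higher), 21 without a filter, 0 without both KO libraries numbered 2 (2709 at an unadjusted p under 0.05 by limma) and 24 to 911 with a library left out. The median log2 fold change of all genes, 0.24, was -0.053 after quantile normalization and 0.80 scaled to T cell core genes. In the 6 other comparisons 0 of the 10 genes were called under every alternative run, with 0 to 3 of them at an unadjusted p under 0.05 by limma in the fit as reported.

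Counts over all genes moved in the other comparisons too. For KO against WT in adipose tissue 38 were called, against 13 (pseudocount 0.1), 18 (filter at 5 TPM), 72 (quantile), 19 (T cell core), 162 (without both KO libraries numbered 2), 0 in a fit to these groups only (742 at an unadjusted p under 0.05 by limma) and 6 to 343 with a library left out. Averaged over tissues it was 0, against 6 (pseudocount 5), 12 (quantile) and 0 to 125. For adipose tissue against spleen in KO cells it was 144 (124 higher), against 70 and 89 (pseudocounts 0.1 and 5), 63 (no filter), 231 (quantile, 173 higher), 236 (block), 81 (T cell core, 79 higher), 0 (without both KO libraries numbered 2, 1627 at an unadjusted p under 0.05 by limma), 12 (these groups only) and 1 to 663. In WT cells it was 22, against 0 (no filter), 59 (filter at 5 TPM), 78 (block), 0 (without both KO libraries numbered 2), 0 (these groups only) and 0 to 39. The counts of 0 in WT cells came with 1961, 2549 and 2543 genes at an unadjusted p under 0.05 by limma. The interaction gave 4, against 6 (pseudocount 5), 10 (quantile), 0 under 6 other settings (246 to 1083 at an unadjusted p under 0.05 by limma) and 0 to 177 with a library left out.

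Without both KO libraries numbered 2, KO against WT turned positive in spleen for Stat3 (0.39), Stat5a (0.35), Stat5b (0.46) and Socs3 (0.999), and averaged over tissues for Stat3 (0.10), Stat5a (0.12), Stat5b (0.068) and Socs3 (0.43). Adipose tissue against spleen turned negative in KO cells for Socs3 (-0.69), Pim1 (-0.21), Pim2 (-0.86) and Il2rg (-0.44), and on average for Socs3 (-0.12) and Pim1 (-0.12). The interaction of Pim1 became -0.19. After quantile normalization Stat5a in KO against WT spleen was 0.067. Adipose tissue against spleen was then -0.10 for Socs3 in WT cells, -0.061 for Stat3, -0.091 for Stat5b and -0.24 for Socs3 in KO cells, and -0.17 for Socs3 and -0.19 for Pim1 on average. With a pseudocount of 5 Socs3 in KO cells was -0.043. Scaled to T cell core genes, adipose tissue against spleen for Stat5a was 0.38 in WT cells, 0.099 in KO cells and 0.24 on average, for Pim1 in WT cells 0.45, the interaction of Cish 0.20, and Socs1 in KO against WT spleen -0.012.

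With a single library left out, these values of the 10 genes changed sign at least once. For KO against WT in adipose tissue the range was -1.92 to 0.48 for Socs3, -2.03 to 0.032 for Pim2 and -1.08 to 0.215 for Il2rg. For KO against WT in spleen it was -0.76 to 0.39 for Stat3, -0.57 to 0.35 for Stat5a, -1.04 to 0.46 for Stat5b, -0.30 to 0.37 for Socs1, -1.68 to 0.999 for Socs3, -0.34 to 0.44 for Pim2 and -0.38 to 0.29 for Il2rg. Averaged over tissues it was -1.20 to 0.14 for Socs3, -0.99 to 0.043 for Pim2 and -0.56 to 0.086 for Il2rg. For adipose tissue against spleen it was, in WT cells, -0.52 to 0.40 for Stat5a, -0.75 to 1.66 for Socs3 and -0.82 to 0.78 for Pim1. In KO cells it was -0.60 to 1.06 for Stat3, -0.48 to 1.03 for Stat5b, -1.26 to 1.41 for Socs3, -0.47 to 1.57 for Pim1, -0.47 to 1.59 for Pim2 and -0.53 to 0.77 for Il2rg. Averaged over genotypes it was -0.40 to 0.94 for Socs3, -0.24 to 0.78 for Pim1 and -0.0104 to 0.64 for Il2rg. For the interaction it was -1.66 to 0.00042 for Stat3, -1.29 to 0.21 for Stat5b, -0.65 to 0.41 for Cish, -0.78 to 0.11 for Socs2, -1.72 to 0.96 for Socs3, -0.45 to 1.59 for Pim1 and -1.04 to 0.26 for Il2rg.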

Other observations

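Of the pathway genes just short of the threshold in adipose tissue against spleen, Il9r, Xbp1 and Il4 were called with the replicate block. The receptor gene Il9r was at 20.9 and 21.4 TPM in KO and 7.69 and 43.4 TPM in WT adipose tissue, against 0.98 and 3.91 TPM in KO and 2.72 and 2.90 TPM in WT spleen (log2 fold change 2.60, limma adjusted p = 0.0526, and 0.0288 with the block). Xbp1, a transcription factor gene of the unfolded protein response, was at 131.5 and 249 TPM in KO and 164 and 577 TPM in WT adipose tissue, against 40.7 and 82.7 TPM in KO and 65.9 and 67.9 TPM in WT spleen (1.90, limma adjusted p = 0.0613, and 0.0224 with the block). The cytokine gene Il4 was at 10.4 and 16.9 TPM in KO and 17.8 and 52.4 TPM in WT adipose tissue, against 7.47 and 2.46 TPM in KO and 0.32 and 4.18 TPM in WT spleen (2.50, limma adjusted p = 0.0652, and 0.0476 with the block). All 3 genes lay higher in every adipose library than in every spleen library, as 11.6% of all tested genes did. They were picked after their values were seen.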
